A study of Homo sapiens with 24 samples.

Results

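HBL-1 is an established line of human diffuse large B-cell lymphoma of the activated B-cell-like kind. The comparison described here asks how its response to dimethyl fumarate (DMF) after 24 h differed from its response after 6 h. It uses 12 of the 24 RNA-seq libraries of the study, 3 in each of 4 groups. These are cells with 20 µM DMF in DMSO for 24 h, cells with DMSO alone for 24 h (control), cells with 20 µM DMF in DMSO for 6 h, and cells with DMSO alone for 6 h (control). All grew in RPMI-1640 with 20% fetal calf serum, and all groups, controls included, received the DMSO solvent. The DMF effect at a time is the log2 fold change of DMF over control. The quantity of interest is the effect at 24 h minus the effect at 6 h, called the difference below. The difference equals the change of the DMF cultures from 6 to 24 h minus that of the control cultures, so that either arm can produce it.

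DMF is an electrophilic ester that reacts with cysteine residues. It releases the transcription factor NRF2 from its inhibitor KEAP1, and NRF2 then switches on antioxidant, glutathione and iron-storage genes. Cells that meet electrophiles, misfolded protein or a shortage of amino acids can also activate the heat shock factor HSF1 and the integrated stress response, in which the transcription factor ATF4 turns on genes for amino acid synthesis, amino acid transport and tRNA charging. Activated B-cell-like lymphoma lines are known for constant NF-kB and STAT3 activity, which drives genes for chemokines, cytokines and survival proteins.

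Most genes of the ATF4 response and part of those of mitosis stood below control at 24 h and above it at 6 h. In this way 28 of 37 ATF4 targets and 13 of 26 mitotic genes changed sides, against 5.14% of all genes tested. The numbers were 16 and 3 in a fit of all 24 libraries, which made far fewer calls. With limma on the deposited TPM values they were 29 and 6. Heat shock genes and part of the NRF2 targets lost induction, with SRXN1 at a log2 effect of 1.44 at 24 h, against 3.30 at 6 h. Repression grew for 11 of 33 NF-kB targets, against 3.38% of all genes tested. An example is CCL22 at -2.41 at 24 h, against -0.62 at 6 h. Other effects, such as the growing induction of NQO1 and the late one of the metallothionein MT1X, came with lower control levels at 24 h than at 6 h.

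Levels are given as CPM, counts per 1000000 counts of a library after scaling between libraries, and a gene was called at a Benjamini-Hochberg adjusted p under 0.05 in edgeR's quasi-likelihood test over 13037 genes. The effect at 24 h was called for 62.5% of them and that at 6 h for 53.1%. The change between the times was called for 75.2% in DMF and 62.2% in control. The difference was called for 6550 genes, 50.2% of those tested, with 3374 higher (25.9% of genes tested) and 3176 lower (24.4%) at 24 h than at 6 h. These were mostly small differences, since 488 genes were at least 2-fold higher (3.74%) and 254 at least 2-fold lower (1.95%), together 5.69% of genes tested. The median difference over all genes tested was 0.0194 on the log2 scale. The shares called higher (25.9%) and lower (24.4%) are the background for the counts of list members below. The p-values measure the spread between 3 libraries of a group, which may be technical, because no source says that the libraries came from separate cultures. When limma was run on the deposited TPM values, 65.7% of the called genes were higher, against 51.5% in the counts. That scaling moved the median effect at 6 h by -0.13 and the median change of DMF cultures by 0.125. A fit of all 24 libraries, which shares its spread with 2 libraries of 12 h that stand apart, called 870 genes. Without those 2 libraries the 22-library fit called 6038. In bulk RNA a change in the share of cells that express a gene and a change in RNA per cell cannot be told apart.

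Called genes were sorted by their effects at the 2 times. A gene reverses when it was called at both times with opposite signs, which held for 1396 genes (10.7% of those tested, 726 or 5.57% with a higher and 670 or 5.14% with a lower difference). Limma on TPM kept 756 of these reversals, and the fit of all 24 libraries placed 89 genes in this class. In 47 of the upward and 41 of the downward reversals the effects at both times were at least 1.5-fold, and in 9 of each at least 2-fold. Those 9 upward ones were near the floor, with means of 0.475 to 1.81 CPM in their highest group. Of the 9 downward ones only VLDLR (15.6 CPM) and SLC6A9 (24.7 CPM) exceeded 5 CPM there. A gene fades when it was called at 6 h and its effect at 24 h was smaller, either with the same sign or not called, which held for 1932 genes (14.8%, made of 7.64% higher and 7.18% lower). It grows when the effect had the same sign and a larger size at 24 h, which held for 890 genes (6.83%, made of 3.44% higher and 3.38% lower). It appears when it was called at 24 h and not at 6 h, which held for 2191 genes (16.8%, made of 8.68% higher and 8.13% lower). The remaining 141 called genes (1.08%, made of 0.552% higher and 0.529% lower) met none of these conditions. Of the 1932 genes that fade, 550 were still called at 24 h and 1382 were not.

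**Figure D1:**
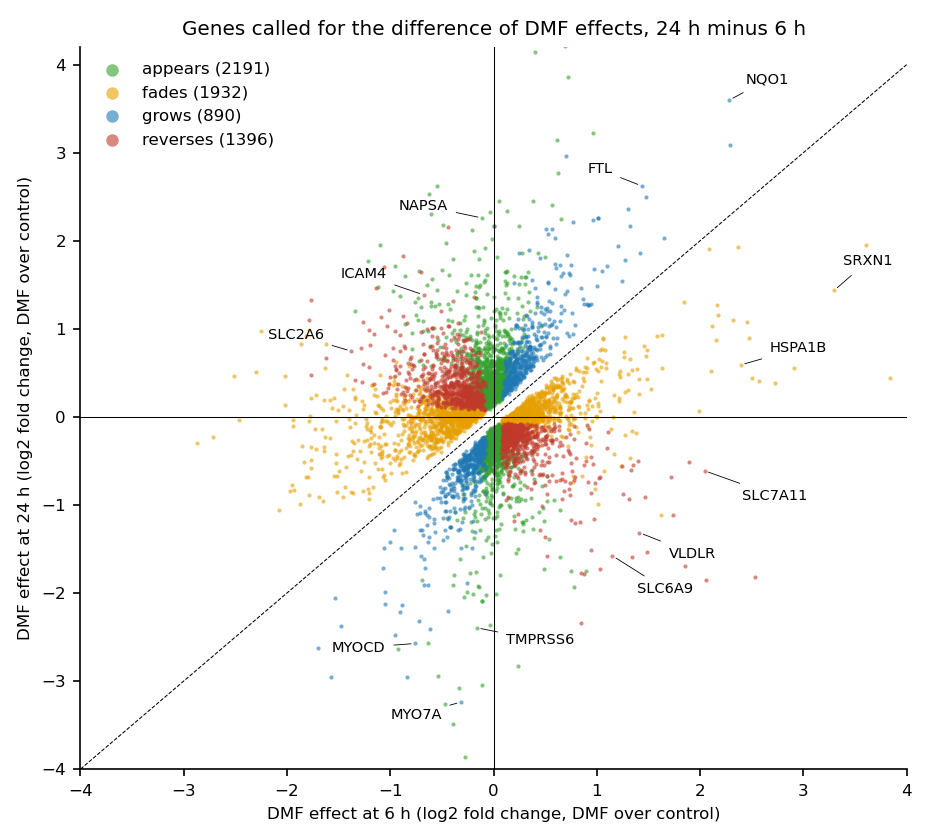
DMF effect at 24 h (vertical axis) against DMF effect at 6 h (horizontal axis), both as log2 fold change of DMF over control, for genes called for the difference. Each point is 1 gene, the colours are the classes with their number of genes, the dashed line marks equal effects, and 6 genes lie outside the axes. SLC7A11, VLDLR and SLC6A9 lie at the lower right, where effects were negative at 24 h and positive at 6 h, and SLC2A6 and ICAM4 at the upper left.

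In 5004 of the 6550 called genes (76.4%) the DMF cultures changed more between the times than the controls did, and in 1546 (23.6%) the controls changed more. Among the genes that reverse, the DMF cultures moved more in 1176 and the controls in 220. Among those that fade the DMF cultures moved more in 1581 and the controls in 351, and among those that appear DMF in 1627 and control in 564. Among those that grow the numbers were closer, at 521 for DMF and 369 for control. In the 24 genes whose effect grew upward with a difference of at least 2-fold, the DMF cultures moved more in 6 and the controls in 18.

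Library totals of expected counts were 34558598 to 37164054 in DMF at 24 h, 31164648 to 33718566 in control at 24 h, 34650146 to 38294192 in DMF at 6 h and 23097853 to 32403461 in control at 6 h. No pair of replicates was identical, and the chi-square per degree of freedom between replicates was 2.21 to 12. The highest value involved DMF at 24 h replicate 1, whose mean gene length of 2890 bases, weighted by counts, was the lowest of all 12. Ribosomal RNA genes held 0.915% to 0.919% of counts in DMF at 24 h, 0.645% to 0.682% in control at 24 h, 1.72% to 1.89% in DMF at 6 h and 1% to 1.09% in control at 6 h. The B cell label was met: all 6 B cell markers were expressed, with a summed level of 4560 to 4650 CPM in DMF at 24 h, 4340 to 4390 CPM in control at 24 h, 3710 to 3780 CPM in DMF at 6 h and 4170 to 4190 CPM in control at 6 h. Of 9 T and NK cell markers 2 passed the filter on low counts, of 10 myeloid markers 3, and of 10 epithelial and stromal markers 4. The T and NK sum was 47.3 to 54.9 CPM in DMF at 24 h, 37.7 to 40.7 CPM in control at 24 h, 37.2 to 39.1 CPM in DMF at 6 h and 28.5 to 29.7 CPM in control at 6 h. Almost all of it was CD247, at 27.7 to 54.4 CPM over the 12 libraries, while CD3D, CD3E and CD3G did not exceed 0.0828 CPM and CD8A did not exceed 0.772 CPM. The myeloid sum was 7.73 to 8.83 CPM in DMF at 24 h, 3.13 to 3.79 CPM in control at 24 h, 4.44 to 5.1 CPM in DMF at 6 h and 4.47 to 5.23 CPM in control at 6 h. The epithelial and stromal sum was 32 to 36.4 CPM in DMF at 24 h, 38.5 to 41.6 CPM in control at 24 h, 19.5 to 20.6 CPM in DMF at 6 h and 29.4 to 33.6 CPM in control at 6 h. PECAM1 carried most of this sum, at 14.9 to 37.1 CPM over the 12 libraries. In these lists 2, 4 and 1 markers were at 0 in every library. The called members were CD68 and PECAM1 (higher) and EPCAM (lower), and the part of such transcripts in any result was not tested.

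Of the lists examined, the ATF4 targets had the largest share of reversing members. Of 37 members tested, 35 were called lower and 0 higher by edgeR (0 at an unadjusted p under 0.05 and 0 by DESeq2), and the median difference was -1.28 against 0.0194 over all genes. At 24 h 4 members were called above control and 30 below, with a median effect of -0.55, where 32.2% of all genes were called above and 30.2% below. At 6 h 35 were called above and 1 below, with a median of 0.82, where the shares of all genes were 26.1% and 27%. Thus 28 members reverse, 5 fade, 1 grows and 1 appears. In the fit of all 24 libraries 16 members reverse. Both arms contributed: the DMF cultures were called lower at 24 h than at 6 h for 33 members (median -0.69, against 36.8% of all genes called lower), while the controls were called higher for 30 (median 0.33, against 30.9% of all genes called higher). The larger change was in DMF for 23 of the called members and in control for 12.

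The list includes ATF4 itself and enzymes of serine synthesis, amino acid transporters and aminoacyl-tRNA synthetases. ATF4 binds a composite C/EBP-ATF element, searched here as TGATGNAA on both strands within 250 bases before to 50 bases after the start of each gene in RefSeq's promoter table (GRCh38.p14). Of 25 members with a promoter in the table, 5 held it (ATF3, ASNS, SLC7A1, CHAC1 and SLC3A2), while 3.67% of all 27305 promoters and 1.67% of the 9905 promoters of tested genes did. Those that lie fully upstream of the start are shown because their genes reverse together. The capitals mark the element or its complement, which lies 191 bases upstream of the start in ATF3, 68 in ASNS and 209 in CHAC1. A match describes these letters only.
ATF3 (chr1:212565196-212565243, plus strand): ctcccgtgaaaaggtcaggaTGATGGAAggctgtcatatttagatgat
ASNS (chr7:97872449-97872496, minus strand): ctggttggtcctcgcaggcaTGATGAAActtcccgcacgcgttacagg
CHAC1 (chr15:40953242-40953289, plus strand): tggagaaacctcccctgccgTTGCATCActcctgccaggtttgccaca

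PSAT1, the aminotransferase of serine synthesis, had the smallest p of the list. It was measured at 152, 145 and 153 CPM in DMF at 24 h and at 332, 329 and 343 CPM in control at 24 h. At 6 h it had 531, 518 and 547 CPM in DMF and 271, 274 and 269 CPM in control. All DMF libraries were above the controls at 6 h and below them at 24 h, without overlap. Over all genes tested, the DMF libraries lay on 1 side of the controls in 64.9% at 24 h and 61.1% at 6 h. The difference was -2.13 ± 0.046 (SE, adjusted p = 3.8e-18), with a change of -1.83 in DMF cultures and of 0.30 in controls, so DMF levels moved. GPT2, an alanine aminotransferase, also moved in DMF, with effects of -0.88 at 24 h and 1.26 at 6 h and changes of -1.93 in DMF and 0.20 in control. For PHGDH, the first enzyme of serine synthesis, both arms moved, by -0.94 in DMF and 0.59 in control. Its effect was -0.84 at 24 h and 0.69 at 6 h.

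SLC7A11, the cystine transporter that feeds glutathione synthesis and is a target of both ATF4 and NRF2, lies at chr4:138164097-138242349 on the minus strand of GRCh38. Its level was 5.79, 6.01 and 5.21 CPM in DMF at 24 h, against 8.47, 8.89 and 8.67 CPM in control at 24 h. At 6 h it was 31.1, 34 and 32 CPM in DMF, against 7.99, 7.02 and 8.38 CPM in control. The controls of both times lay close together, and the DMF libraries lay below them at 24 h and above them at 6 h. The difference was -2.65 ± 0.11 (adjusted p = 7.7e-14), and the control change of 0.14 was not called. In the fit of all 24 libraries its effect at 24 h was not called, so that it fades there. ALDH1L2, a mitochondrial folate enzyme, had 19.6, 27 and 24.7 CPM in DMF at 24 h, 80.5, 84.9 and 81.3 CPM in control at 24 h, 67.4, 66.6 and 63.4 CPM in DMF at 6 h and 36.1, 34.7 and 36.9 CPM in control at 6 h. Both arms moved in opposite directions, by -1.47 in DMF and 1.19 in control, for a difference of -2.66 ± 0.10. SLC6A9, the glycine transporter GLYT1, fell in DMF to 4.55, 4.44 and 4.61 CPM at 24 h, against 24.5, 24.9 and 24.8 CPM at 6 h. Its controls were at 13.5, 13.8 and 13.3 CPM at 24 h and 11.9, 11.6 and 10.1 CPM at 6 h, and the difference was -2.73 ± 0.10.

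In 10 of the 28 reversing members the controls moved more. VLDLR, the very low density lipoprotein receptor, had the largest of these differences at -2.73 ± 0.14 (adjusted p = 3.7e-12). It had 5.93, 6.95 and 5.92 CPM in DMF at 24 h and 16, 17.2 and 13.6 CPM in control at 24 h, but 9.03, 9.11 and 8.82 CPM in DMF at 6 h and 3.26, 3.14 and 3.66 CPM in control at 6 h. DMF changed by -0.52 and control, the arm that moved more, by 2.21. SESN2, a leucine sensor and stress-induced inhibitor of mTORC1, had 48.1, 48.3 and 47.1 CPM in DMF at 24 h and 72.1, 67.7 and 70.3 CPM in control at 24 h, with 79.8, 84.8 and 87.8 CPM in DMF at 6 h and 33.1, 34.4 and 31.7 CPM in control at 6 h. DMF cultures fell by 0.81 and controls rose by 1.08. CHAC1, which degrades glutathione, changed by -1.02 in DMF and 1.36 in control. With offsets for GC content and length its larger change was in DMF. VEGFA, the angiogenic growth factor, changed by -0.26 in DMF and 1.02 in control. Its effect of -0.17 at 24 h lost its call in DESeq2, with all 24 libraries and without control at 24 h replicate 1 or 2 or DMF at 24 h replicate 1, where VEGFA fades.

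**Figure D2:**
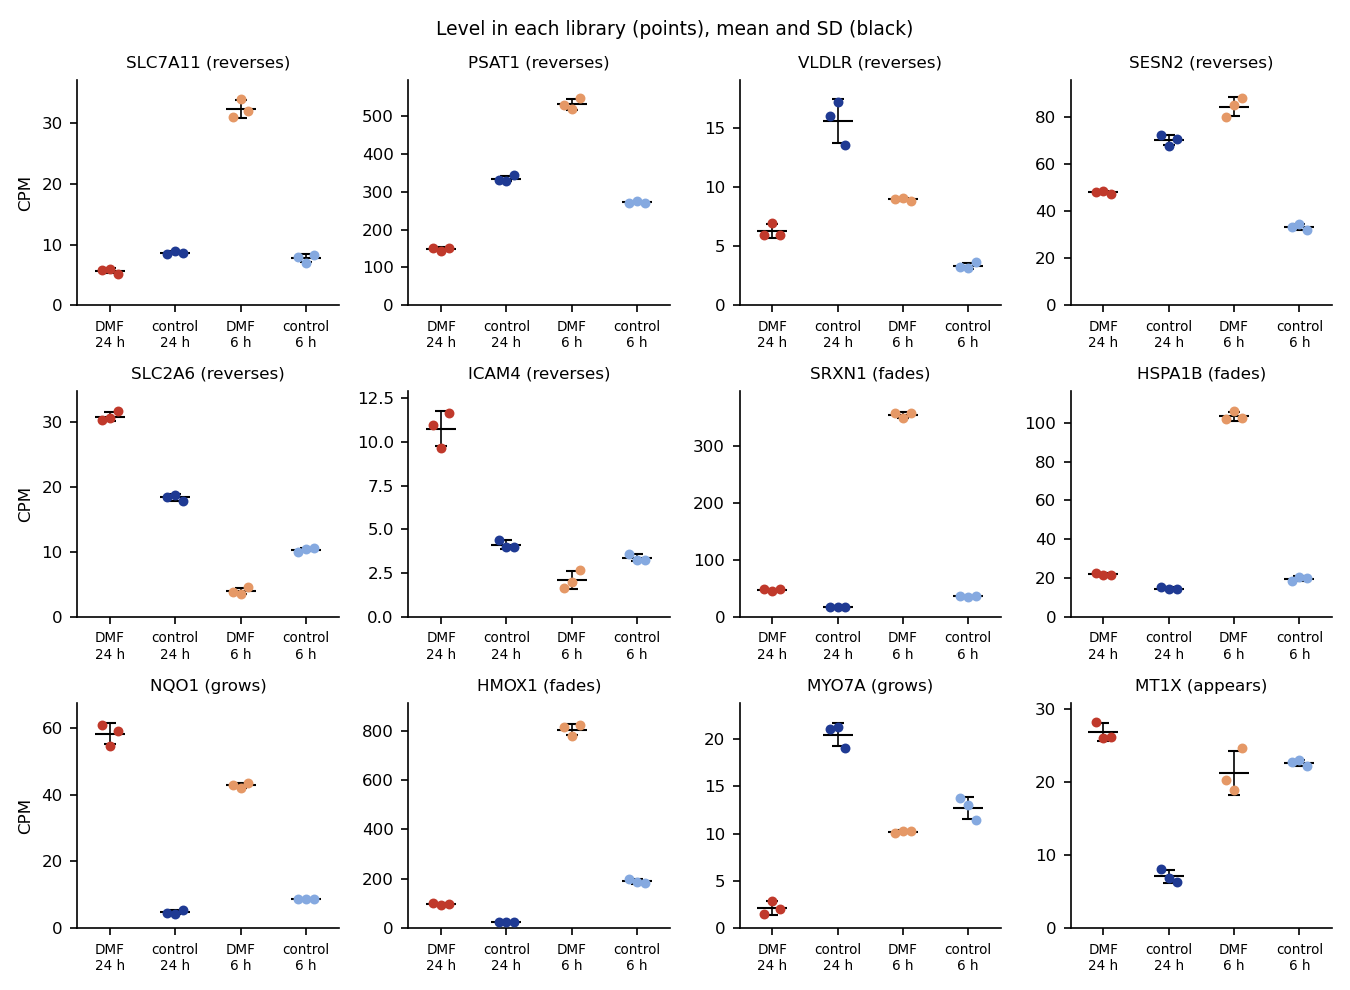
Level in CPM (linear axis from 0) of 12 genes in each of the 12 libraries, in the order DMF at 24 h, control at 24 h, DMF at 6 h and control at 6 h. Points are libraries, black lines are the mean and SD of 3 libraries, and the class of the gene is in its title. SLC7A11 and PSAT1 move mainly in DMF, VLDLR and MT1X mainly in control, and HMOX1 drops in both.

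The libraries of 12 and 48 h took no part in these calls. Over all genes tested 42.9% were called at 12 h and 61.7% at 48 h. Of the 28 reversing ATF4 targets, 13 were called at 12 h with the sign of 6 h and 3 with that of 24 h. At 48 h 14 were called with the sign of 6 h again and 10 with that of 24 h. Their median effects were 0.854 at 6 h, 0.234 at 12 h, -0.655 at 24 h and 0.1 at 48 h. SLC7A11 had effects of 2.04, 0.94, -0.61 and 1.14 at the 4 times, so its lowest effect was at 24 h.

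**Figure D3:**
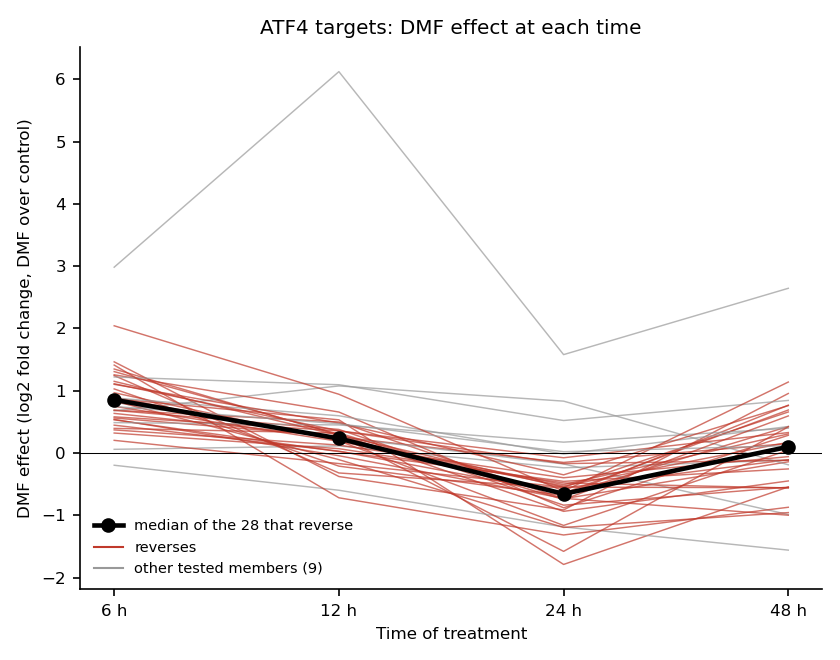
DMF effect (log2 fold change of DMF over control) of each tested ATF4 target at 6, 12, 24 and 48 h. Red lines are members that reverse between 6 and 24 h, grey lines the other 9 members, and the black line is the median of the 28 that reverse, which passes 0.854, 0.234, -0.655 and 0.1.

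Part of the mitotic genes also turned from above to below control. Of 26 tested, 25 were called lower and 0 higher by edgeR (0 at an unadjusted p under 0.05 and 0 by DESeq2), with a median difference of -0.50. Of these, 13 reverse, 7 appear, 4 grow and 1 fades, and the larger change was in DMF for 22. At 24 h 24 members were called below control and 0 above, with a median effect of -0.43. At 6 h 15 were called above and 4 below, with a median of 0.11. PLK1, the polo-like kinase of mitotic entry, had 223, 207 and 219 CPM in DMF at 24 h, 348, 339.7 and 361 CPM in control at 24 h, 461, 445 and 445 CPM in DMF at 6 h and 385, 375 and 385 CPM in control at 6 h. The groups did not overlap at either time, and the difference of -0.93 ± 0.048 came with a change of -1.06 in DMF and -0.13 in control. CCNB1, the mitotic cyclin B1, had mean levels of 173 ± 6.01 CPM in DMF at 24 h, 232 ± 8.2 CPM in control at 24 h, 397 ± 13.3 CPM in DMF at 6 h and 296 ± 9.54 CPM in control at 6 h (SD, n = 3 each). BUB1B, a spindle checkpoint kinase, was already below control at 6 h, with effects of -0.90 at 24 h and -0.18 at 6 h. At 48 h 12 of the 13 reversing members were called with the sign of 24 h. The median GC content of the list was 44.9%, against 50.1% of all genes tested, and with offsets for GC content and length all 26 members were called lower and 14 reverse. In the TPM fit 6 members reverse, and in the fit of all 24 libraries 6 were called lower and 3 reverse.

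Of 30 replication genes tested, 23 were called below control at 24 h and 23 at 6 h, with median effects of -0.20 at 24 h and -0.17 at 6 h. The difference was called higher for 7 and lower for 9, a share near the 50.2% of all genes, with a median of -0.048. The 2 members that reverse are E2F1 and GINS4, where 10.7% of all genes tested reverse and 5.57% reverse upward. E2F1, a driver of S phase entry, reverses upward with effects of 0.27 at 24 h and -0.31 at 6 h. GINS4, a subunit of the replicative helicase, does so with 0.13 at 24 h and -0.23 at 6 h. GINS4 fades in the fit of TPM. MCM7, another helicase subunit, appears downward at -0.38, against -0.052 at 6 h. The DMF cultures moved more in each of the 3.

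Genes below control at 6 h and above it at 24 h numbered 726. They had a median GC content of 57.8% and a median effective length of 2103 bases, against 46.3% and 3478 bases in the genes that reverse downward and 50.1% and 2674 bases in all genes tested. With the genes split into 10 equal bins of GC content, the median difference was 0.254 in the highest bin and -0.0723 in the lowest. With offsets for GC content and length, an alternative chosen after the data were seen, 6571 genes were called, 80.4% of the original calls kept their direction, and 951 of the 1396 reversals remained. In all, 1415 genes reversed with these offsets. Among genes whose difference was already positive without them, 582 reversed upward.

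SLC2A6, a glucose transporter of endosomes and lysosomes (chr9:133471095-133479137), had 30.2, 30.6 and 31.6 CPM in DMF at 24 h, 18.4, 18.8 and 17.8 CPM in control at 24 h, 3.87, 3.49 and 4.53 CPM in DMF at 6 h and 10.01, 10.4 and 10.6 CPM in control at 6 h. Both arms rose, DMF by 2.96 and control by 0.83, and the difference was 2.13 ± 0.10 (adjusted p = 1.2e-12). ICAM4, an adhesion protein, had 11, 9.67 and 11.6 CPM in DMF at 24 h and 1.66, 1.995 and 2.65 CPM in DMF at 6 h. Its controls rose much less, and were at 4.41, 3.97 and 3.97 CPM at 24 h and 3.59, 3.27 and 3.26 CPM at 6 h. The difference was 2.06 ± 0.19. RPS6KL1, a kinase-like protein, likewise moved in DMF, by 2.03 against 0.27 in control. LOC112268238, which the tables list only by its locus ID, had a difference of 2.60 ± 0.21, with 12.2, 11.1 and 11.6 CPM in DMF at 24 h and 2.64, 3.12 and 2.02 CPM in control at 24 h. At 6 h it had 2.22, 2.28 and 2.16 CPM in DMF and 2.32, 3.05 and 3.66 CPM in control, and its effect there (-0.44, adjusted p = 0.03) was not called when control replicate 2 or 3 or any DMF replicate of 6 h was left out, nor with 22 or 24 libraries. It then appears.

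BTG2 and JUND are 2 of the 220 reversing genes in which the control moved more. BTG2, an antiproliferative immediate early gene, had 241, 250.3 and 245 CPM in DMF at 24 h and 137, 148 and 135 CPM in control at 24 h, with 166, 169 and 174 CPM in DMF at 6 h and 209, 211 and 201 CPM in control at 6 h. DMF changed by 0.53 and control by -0.56. JUND, a subunit of the AP-1 factor, changed by 0.49 in DMF and -0.49 in control. These sizes are near equal, and the arm with the larger one switches in 8 alternatives for JUND and in the TPM fit for BTG2. IL10, an anti-inflammatory cytokine that such lymphoma cells secrete, reverses the other way, with 4.41, 4.8 and 5.4 CPM in DMF at 24 h, 11.4, 10.7 and 10.8 CPM in control at 24 h, 7.53, 6.27 and 7.06 CPM in DMF at 6 h and 4.23, 4.32 and 3.91 CPM in control at 6 h. Its difference was -1.91 ± 0.14, and DMF changed by -0.51, less than the control (1.40).

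The electrophile response split between fading and growing. Of 27 NRF2 targets tested, 10 were called higher and 11 lower, with a median difference of -0.11. At 24 h 22 were called above control and at 6 h 23, so most members were induced at both times, with median effects of 1.07 at 24 h and 1.27 at 6 h. Of the 11 lower ones, 9 fade from an induced level, SLC7A11 reverses and ABCC1 appears. Of the 10 higher ones, 8 grow, ABCC2 appears and IDH1 recovers from repression. The antioxidant response element, searched as TGACNNNGC, was held by 4 of 20 members with a promoter in the table (PGD, GCLM, TXNRD1 and PIR), against 13.6% of all promoters and 15% of those of tested genes. The first 3 fade and PIR grows. Upstream windows of the fading genes are shown with the element or its complement in capitals, 201 bases upstream of the start in PGD, 34 in GCLM and 99 in TXNRD1.
PGD (chr1:10398843-10398891, plus strand): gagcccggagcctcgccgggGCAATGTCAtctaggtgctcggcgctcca
GCLM (chr1:93909436-93909484, minus strand): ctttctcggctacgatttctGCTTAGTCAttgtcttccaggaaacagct
TXNRD1 (chr12:104215660-104215708, plus strand): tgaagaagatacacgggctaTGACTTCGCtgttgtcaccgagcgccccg

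SRXN1, which repairs oxidized peroxiredoxins, had the largest decline among the fading members. It was at 48.4, 45.9 and 48.2 CPM in DMF at 24 h and 17.8, 16.8 and 18.1 CPM in control at 24 h, against 358, 349 and 357 CPM in DMF at 6 h and 37.3, 35 and 35.7 CPM in control at 6 h. DMF libraries were above control at both times, and DMF fell by 2.90 and control fell by 1.04. The difference was -1.86 ± 0.06 (adjusted p = 2.0e-15), leaving an effect of 1.44 at 24 h. TXNRD1, the thioredoxin reductase, had 526 ± 5.57 CPM in DMF at 24 h and 236 ± 3.85 CPM in control at 24 h, against 1422 ± 14 CPM in DMF at 6 h and 315 ± 6.14 CPM in control at 6 h (mean and SD, n = 3 each). GCLM, the modifier subunit of the enzyme that starts glutathione synthesis, kept an effect of 0.53 at 24 h, against 2.10 at 6 h. GSR, glutathione reductase, kept 0.76 at 24 h, against 1.48 at 6 h. In all 4 the DMF cultures moved more.

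NQO1, a quinone reductase, and FTL, the ferritin light chain, grew instead. NQO1 (chr16:69706996-69726951) had 60.7, 54.6 and 59.1 CPM in DMF at 24 h and 4.5, 4.4 and 5.53 CPM in control at 24 h, against 42.8, 41.9 and 43.6 CPM in DMF at 6 h and 8.8, 8.85 and 8.72 CPM in control at 6 h. The difference was 1.31 ± 0.10 (adjusted p = 1.5e-09), and DMF changed by 0.44, less than the control (-0.87). FTL had 4442, 3997 and 4233 CPM in DMF at 24 h and 694, 673 and 692 CPM in control at 24 h, against 3000.0, 2847 and 2975 CPM in DMF at 6 h and 1102, 1088 and 1076 CPM in control at 6 h. DMF rose by 0.52 and control fell by 0.67, for a difference of 1.19 ± 0.048. In the TPM fit the larger of these 2 changes was in DMF. FTL has processed pseudogenes, so its reads may be shared.

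Some effects changed little or not detectably. OSGIN1, an oxidative stress-induced growth inhibitor, had 12.2, 11.4 and 11.8 CPM in DMF at 24 h and 0.434, 0.257 and 0.275 CPM in control at 24 h, against 36.6, 33.7 and 37.9 CPM in DMF at 6 h and 1.04, 0.785 and 1.06 CPM in control at 6 h. Its effects were 5.19 at 24 h and 5.20 at 6 h, while both arms fell, by 1.61 in DMF and 1.60 in control. The difference of -0.015 was not called, although on log2(TPM + 1), where low control values are compressed, it was called at -0.87. HMOX1, heme oxygenase, also fell in both arms. It had 103, 95.9 and 97 CPM in DMF at 24 h and 26.2, 27.5 and 25 CPM in control at 24 h, against 815, 777 and 821 CPM in DMF at 6 h and 199, 189 and 181 CPM in control at 6 h. The changes of -3.03 in DMF and -2.85 in control nearly cancelled, and the difference of -0.17 ± 0.061 (adjusted p = 0.022) lost its call without control at 6 h replicate 3 (0.0683), without control at 24 h replicate 2 (0.0707), in the TPM fit (0.0692) and in the fit of all 24 libraries.

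CCL3 and CCL4, chemokines of activated B cells, stayed above control. The effect was 3.14 at 24 h and 3.17 at 6 h for CCL3, and 3.14 at 24 h and 3.28 at 6 h for CCL4. Their reads may be shared with CCL3L3 and CCL4L2. Summed with these copies the log2 ratios were 2.89 at 24 h and 3.26 at 6 h for CCL3, and 2.97 at 24 h and 3.23 at 6 h for CCL4. CD40, a receptor for T cell help, stayed below control, at -1.09 at 24 h and -1.07 at 6 h. GPX4, which reduces lipid peroxides and guards against ferroptosis, had effects of -0.058 at 24 h and -0.00082 at 6 h. ACSL4, which supplies the lipids that peroxidize, had 0.12 at 24 h and 0.07 at 6 h. With offsets for GC content and length the differences of CD40 (-0.13), GPX4 (-0.39) and ACSL4 (0.19) were called. That of GPX4 was -0.057 without these offsets, so its result depends on them. XAF1, an interferon-induced antagonist of XIAP, had effects of -1.41 at 24 h and -2.14 at 6 h, and its difference was not called (adjusted p = 0.08).

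Heat shock genes faded. Of 23 tested, 19 were called lower and 1 higher, with a median difference of -0.46, and 15 of the 19 fade while 3 reverse. HSPA1B, an inducible HSP70, had 22.7, 21.8 and 21.4 CPM in DMF at 24 h and 15.4, 14.1 and 14.2 CPM in control at 24 h, against 102, 106 and 102 CPM in DMF at 6 h and 18.2, 20.7 and 20.3 CPM in control at 6 h. DMF was above control in all libraries of both times, and DMF moved by -2.24, against -0.43 in control. The difference was -1.80 ± 0.075 (adjusted p = 7.7e-14), and it was -1.80 as a log2 ratio of sums with the near-identical HSPA1A. DNAJB1, an HSP40 co-chaperone, kept an effect of 0.32 at 24 h, against 1.52 at 6 h, and the changes were -1.76 in DMF and -0.56 in control. HSPA8, the constitutive HSC70, reverses. It had 2748, 2554 and 2808 CPM in DMF at 24 h and 4239, 4041 and 4470.4 CPM in control at 24 h, against 10672, 10181 and 10537 CPM in DMF at 6 h and 7624, 7241 and 7633 CPM in control at 6 h.

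A heat shock element, searched on both strands as GAA, TTC and GAA in a row with any 2 bases after the first and after the second, lay in 3 of 20 members with a promoter (DNAJA1 and CHORDC1, which fade, and HSPA8), against 0.487% of all promoters and 0.323% of those of tested genes. CHORDC1 held 3 overlapping matches, of which the one 60 bases upstream of the start is shown, beside the 2 of HSPA8 at 230 and 55 bases. Capitals mark the element or its complement.
CHORDC1 (chr11:90223077-90223129, minus strand): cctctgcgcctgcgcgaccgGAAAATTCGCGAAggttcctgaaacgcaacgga
HSPA8 (chr11:123062334-123062386, minus strand): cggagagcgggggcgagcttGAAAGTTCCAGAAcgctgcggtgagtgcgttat
HSPA8 (chr11:123062159-123062211, minus strand): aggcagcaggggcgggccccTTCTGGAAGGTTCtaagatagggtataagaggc

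Chaperones of the unfolded protein response moved less, with 3 of 22 called higher, 12 lower and a median difference of -0.19. HSPA5, the main chaperone of the endoplasmic reticulum, had effects of 0.17 at 24 h and 0.60 at 6 h, and DMF moved more (-0.33, against 0.10 in control). EDEM1, which sorts misfolded glycoproteins for degradation, and XBP1, a transcription factor of this response, changed more in control. EDEM1 changed by -0.10 in DMF and 0.59 in control, and XBP1 by -0.27 in DMF and 0.62 in control. XBP1 is counted as reversing, but its effect of -0.10 at 24 h lost its call without control at 24 h replicate 1 or 3 or DMF at 24 h replicate 2, and with all 24 libraries. The core element CCACG lay in 17 of 21 promoters of the list in 37.9% of all promoters and in 50.3% of those of tested genes.

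RAP1GAP, an inhibitor of the small GTPase RAP1, was a large fading effect outside these lists. It had 7.15, 9.67 and 10.01 CPM in DMF at 24 h and 4.47, 4.86 and 5.16 CPM in control at 24 h, against 39.1, 38.7 and 43.6 CPM in DMF at 6 h and 6.98, 6.45 and 8.22 CPM in control at 6 h, a difference of -1.58 ± 0.16. TFRC, the transferrin receptor, lost an effect of 0.30 at 6 h and stood at -0.061 at 24 h. SLC39A14, a zinc and iron importer, stood at 0.0024 at 24 h, against 0.50 at 6 h. SLAMF7, a surface receptor of plasma cells, kept 0.92 at 24 h, against 1.58 at 6 h. In each the DMF cultures fell more than the controls.

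Repression faded as well. ARL11, an ARF-like GTPase, had 13.2, 10.3 and 11.8 CPM in DMF at 24 h and 10.3, 11.4 and 11.6 CPM in control at 24 h, against 3.84, 3.06 and 3.42 CPM in DMF at 6 h and 9.57, 9.64 and 10.02 CPM in control at 6 h. The groups were apart at 6 h and overlapped at 24 h. The difference was 1.59 ± 0.14 (adjusted p = 9.1e-09), from a DMF rise of 1.77 with a control change of 0.19. PARP10, a mono-ADP-ribosyltransferase, had 19.6 ± 2.44 CPM in DMF at 24 h and 24.9 ± 1.38 CPM in control at 24 h, against 3.98 ± 0.531 CPM in DMF at 6 h and 13.7 ± 1.8 CPM in control at 6 h (mean and SD, n = 3 each). WNT6, a WNT ligand, changed by 1.67 in DMF and 0.30 in control, and C2orf81, a gene of unknown role, by 2.05 in DMF and 0.57 in control. Both were repressed at 6 h (-1.40 for WNT6, -1.40 for C2orf81) and had no called effect at 24 h.

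Of 26 interferon-stimulated genes tested, 19 were called below control at 24 h and 19 at 6 h, with median effects of -0.65 at 24 h and -0.93 at 6 h. The difference was called higher for 9 and lower for 4, a share near the 50.2% of all genes, with a median of 0.20. The DMF cultures moved more in all 9 of the higher ones. The 3 members that reverse, all upward, are IRF7, STAT2 and ISG15. Of all genes tested 10.7% reverse and 5.57% reverse upward. IRF7, the master regulator of type I interferon, had 11.7, 10.7 and 10.9 CPM in DMF at 24 h and 9.12, 8.26 and 8.3 CPM in control at 24 h, against 3.62, 3.82 and 4.21 CPM in DMF at 6 h and 7.76, 7.81 and 8.01 CPM in control at 6 h. STAT2, a subunit of the interferon-activated factor ISGF3, had effects of 0.28 at 24 h and -0.54 at 6 h, and ISG15, a ubiquitin-like protein, 0.49 at 24 h and -0.29 at 6 h. With offsets for GC content and length IRF7 and ISG15 fade. At 12 h the 3 were called below control, with effects of -0.90 for IRF7, -0.29 for STAT2 and -0.75 for ISG15. The interferon-stimulated response element, searched on both strands as a pair of GAAA repeats with any 2 bases between them, lay in 12 of 19 promoters of the list, against 3.65% of all promoters and 2.88% of those of tested genes, and its holders include reversing, fading, growing, appearing and uncalled members. Windows are shown for a gene that reverses upward and one whose repression grows, with the element or its complement in capitals, 107 bases upstream of the start in ISG15 and 159 in IFIH1.
ISG15 (chr1:1013370-1013419, plus strand): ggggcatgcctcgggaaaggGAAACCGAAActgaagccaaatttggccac
IFIH1 (chr2:162318814-162318863, minus strand): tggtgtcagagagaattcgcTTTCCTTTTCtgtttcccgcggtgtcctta

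B cell genes went both ways. Of 27 tested, 10 were called higher and 9 lower, with a median difference of 0.0961. CD79A and CD79B encode the signalling pair of the B cell receptor. CD79A had 1512, 1480.0 and 1455 CPM in DMF at 24 h and 903, 924 and 889 CPM in control at 24 h, against 1115, 1115 and 1178 CPM in DMF at 6 h and 965, 974 and 959 CPM in control at 6 h, so its effect grew. CD79B had effects of 0.32 at 24 h and -0.46 at 6 h and reverses upward, but fades with offsets for GC content and length. BACH2, a repressor of plasma cell differentiation, reverses downward, with -0.26 at 24 h and 0.57 at 6 h. Of 14 MHC class II genes, 8 were called higher and 3 lower, with a median difference of 0.235. HLA-DMB, which loads peptide onto class II molecules with HLA-DMA, had 25.3, 24.8 and 27.4 CPM in DMF at 24 h and 18.7, 19.2 and 17.5 CPM in control at 24 h, against 11.9, 11 and 11.8 CPM in DMF at 6 h and 18.4, 18.1 and 19.1 CPM in control at 6 h. Its control was flat (-0.0068), whereas for HLA-DRB1, which has near-identical relatives, the changes were -0.10 in DMF and -0.68 in control.

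Most NF-kB targets stood lower relative to control at 24 h than at 6 h, though not all were repressed. At 24 h 23 were called below control and 6 above, with a median effect of -0.63. At 6 h 17 were called below and 8 above, with a median of -0.26. Of 33 tested, 2 were called higher and 21 lower, with a median difference of -0.44, and 11 of the lower ones grow and 5 appear. CCL22, a chemokine that attracts CCR4-bearing T cells, had 4.61, 4.64 and 4.85 CPM in DMF at 24 h and 26.2, 26.1 and 22.7 CPM in control at 24 h, against 41.8, 40.8 and 41.5 CPM in DMF at 6 h and 62.1, 63.8 and 64.3 CPM in control at 6 h. DMF was below control in every library of both times, both arms fell, by 3.14 in DMF and 1.34 in control, and the difference was -1.79 ± 0.084 (adjusted p = 5.5e-13). EBI3, a subunit of IL-27 and IL-35, had the smallest p of the list, with 18 ± 0.235 CPM in DMF at 24 h and 66.5 ± 1.07 CPM in control at 24 h, against 47.4 ± 1.77 CPM in DMF at 6 h and 56.7 ± 0.749 CPM in control at 6 h (mean and SD, n = 3 each). NFKBIA and TNFAIP3 encode the feedback inhibitors IkB-alpha and A20. NFKBIA changed by -0.37 in DMF and 0.35 in control, near equal amounts. TNFAIP3 changed by -0.27 in DMF and 0.44 in control. IRF4, on which survival of such lymphoma lines depends, had 352, 377 and 360.2 CPM in DMF at 24 h and 653, 657 and 654 CPM in control at 24 h, against 586, 580.2 and 573 CPM in DMF at 6 h and 614, 597 and 610.3 CPM in control at 6 h. Its effect at 6 h of -0.068 was not called, and was called when DMF at 24 h replicate 1 or 2 was left out or TPM were used, where it grows.

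STAT3 targets showed 13 of 18 called lower and 2 higher, with a median difference of -0.62. At 24 h 12 were called below control and 1 above, with a median effect of -0.39, and at 6 h 7 were called below and 6 above, with a median of 0.04. Of the 13 lower ones 4 grow, 4 fade from an induced level, 3 appear and 2 reverse. SOCS3, the feedback inhibitor of JAK-STAT signalling, had 1.99, 2.54 and 2.44 CPM in DMF at 24 h and 10.4, 13.3 and 12.7 CPM in control at 24 h, against 1.94, 2.47 and 3.05 CPM in DMF at 6 h and 6.72, 7.24 and 6.95 CPM in control at 6 h. DMF levels overlapped between the times and the control was the arm that moved (0.80). PIM1, a survival kinase, moved in DMF, by -0.58 against 0.21 in control. Its effect of -0.08 at 6 h was so small that it was not called in 12 of the alternatives, where PIM1 appears. ALOX5, the 5-lipoxygenase that starts leukotriene synthesis, rose in both arms, by 0.84 in DMF and 1.49 in control, and its repression grew to -1.34 at 24 h, against -0.68 at 6 h.

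MYO7A, an unconventional myosin (chr11:77128264-77215241), was repressed further at 24 h. It had 1.49, 2.89 and 2.06 CPM in DMF at 24 h and 21.1, 21.2 and 19.1 CPM in control at 24 h, against 10.03, 10.3 and 10.2 CPM in DMF at 6 h and 13.8, 13 and 11.4 CPM in control at 6 h. The difference was -2.92 ± 0.17 (adjusted p = 1.6e-11), with a change of -2.24 in DMF and 0.69 in control. Without control at 6 h replicate 1 or 2 its effect at 6 h was not called, nor with all 24 libraries, and MYO7A then appears. MYOCD, a coactivator of smooth muscle genes, had 5.58 ± 0.956 CPM in DMF at 24 h and 33.4 ± 1.92 CPM in control at 24 h, against 15.9 ± 0.577 CPM in DMF at 6 h and 26.9 ± 1.18 CPM in control at 6 h (mean and SD, n = 3 each). CX3CL1, the chemokine fractalkine, fell in both arms, by 3.02 in DMF and 0.91 in control.

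Effects that grew upward by at least 2-fold mostly rested on control levels. RENBP, an N-acetylglucosamine epimerase, had 25.4, 24 and 23.9 CPM in DMF at 24 h and 3.01, 3.12 and 3.3 CPM in control at 24 h, against 13, 13 and 14.2 CPM in DMF at 6 h and 8.13, 8.5 and 8.07 CPM in control at 6 h. DMF rose by 0.87 and control fell by 1.39, for a difference of 2.25 ± 0.11 (adjusted p = 7.2e-13). FABP3, a fatty acid binding protein, fell by 0.58 in DMF and 2.2 in control. PMEL, a melanosome protein, had 4.11, 4.09 and 4.25 CPM in DMF at 24 h and 1.12, 1.2 and 1.1 CPM in control at 24 h, against 6.62, 6.8 and 6.35 CPM in DMF at 6 h and 5.71, 5.06 and 5.77 CPM in control at 6 h. Its effect at 6 h, 0.25, was called at an adjusted p of 0.029 and lost that call without control replicate 2 or DMF replicate 1 or 2 of 6 h, and under 4 other alternatives. HMCES, which shields abasic sites in single-stranded DNA, changed by 0.84 in DMF and -0.71 in control, and control moved more with offsets for GC content and length.

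Metallothioneins, small zinc-binding proteins, were called above control at 24 h where control levels were lower than at 6 h. MT1X had 28.3, 26 and 26.2 CPM in DMF at 24 h and 8.1, 6.95 and 6.32 CPM in control at 24 h, against 20.3, 19 and 24.7 CPM in DMF at 6 h and 22.8, 23 and 22.2 CPM in control at 6 h. Control at 24 h stood below the other groups. The difference was 2.0 ± 0.12 (adjusted p = 4.4e-11), with 0.33 in DMF and -1.67 in control. Without DMF at 6 h replicate 3, and with offsets for GC content and length, MT1X reverses. MT2A changed by -0.23 in DMF and -1.66 in control. Its effect at 6 h, 0.11, was called under DESeq2 and 6 other alternatives, where MT2A grows. In the list of 6 metallothionein and zinc genes 4 were called higher and 2 lower, with a median difference of 0.73. Metallothionein genes are near-identical relatives, so their reads may be shared.

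The appearing effect of NAPSA came from DMF. NAPSA, an aspartic protease, had 12.3, 12.5 and 12.9 CPM in DMF at 24 h and 2.26, 2.94 and 2.63 CPM in control at 24 h, against 2.06, 2.47 and 2.56 CPM in DMF at 6 h and 2.95, 2.88 and 1.95 CPM in control at 6 h. The difference was 2.37 ± 0.20 (adjusted p = 4.9e-09), and its reads may be shared with NAPSB. Together NAPSA and NAPSB had 687 CPM in DMF and 538 CPM in control at 24 h, against 484 and 589 CPM at 6 h. The log2 ratios of these sums were 0.35 at 24 h and -0.28 at 6 h, a difference of 0.64. The appearing effect and its size thus hold only for NAPSA counted alone. Among 29 autophagy and lysosome genes 11 were called higher and 4 lower, with a median difference of 0.073. The share called, 51.7%, was near the 50.2% of all genes. The cathepsin CTSB (0.77 at 24 h, 0.017 at 6 h) appears with DMF moving, whereas the cathepsin CTSD grows with 0.32 in DMF and -0.41 in control.

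Among repressions that appear at 24 h was that of TMPRSS6, a membrane serine protease known from liver as a repressor of hepcidin (chr22:37065436-37109713). It had 3.34, 4.37 and 4.09 CPM in DMF at 24 h and 21, 20.4 and 20.9 CPM in control at 24 h, against 18.8, 17.4 and 20.8 CPM in DMF at 6 h and 21.3, 21.5 and 21 CPM in control at 6 h. DMF at 24 h stood below the other groups, and the difference was -2.23 ± 0.11 (adjusted p = 1.5e-12). Its effect at 6 h, -0.16, was called in the TPM fit and without DMF at 6 h replicate 3 or DMF at 24 h replicate 1 or 2. MYC, the growth-promoting transcription factor, had 178, 163 and 169 CPM in DMF at 24 h and 288, 272 and 278 CPM in control at 24 h, against 269, 263 and 265 CPM in DMF at 6 h and 269, 257 and 260.0 CPM in control at 6 h, and DMF moved (-0.65, against 0.093 in control). BAIAP2L1, an actin regulator, had effects of -1.50 at 24 h and 0.23 at 6 h, and CPNE2, a calcium-dependent phospholipid-binding protein, -1.42 at 24 h and 0.035 at 6 h. NLRP11, a member of the NLR family, changed by -0.88 in DMF and 0.90 in control, and the larger of these near-equal sizes switches in 5 of the fits that leave out 1 library.

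Ribosome biogenesis and MYC-related genes were called lower in 26 of 31 and higher in 2, with a median difference of -0.28. Controls also declined in this list, and the median change was -0.65 in DMF and -0.38 in control. RRP1B and POLR1B, which serve ribosomal RNA processing and synthesis, stood below control at 24 h. The effect was -0.45 at 24 h and 0.075 at 6 h for RRP1B, and -0.45 at 24 h and 0.13 at 6 h for POLR1B. The share of counts on ribosomal RNA genes given above moved with time in both arms, and its part in this list was not tested.

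Control levels moved in several metabolic lists. Of 35 glycolysis and hypoxia genes 3 were called higher and 17 lower, with a median difference of -0.15. The share called was 57.1%, against 50.2% of all genes. In 16 of the 20 called members the larger change was in control, against 23.6% of all called genes. The median change was 0.07 in DMF and 0.39 in control. PDK1, which restrains entry of pyruvate into mitochondria, had 31, 31.2 and 30.3 CPM in DMF at 24 h and 58.8, 66.9 and 59.8 CPM in control at 24 h, against 39, 39.7 and 38.3 CPM in DMF at 6 h and 36.1, 36.9 and 38.3 CPM in control at 6 h. Control at 24 h stood above the other groups, and the difference was -1.08 ± 0.069 (adjusted p = 8.9e-11). CA9, a carbonic anhydrase induced by hypoxia, was an exception, with -1.90 in DMF and -0.24 in control. The hypoxia response core ACGTG lay in 15 of 31 promoters of the list in 21.6% of all promoters and in 26.9% of those of tested genes.

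Of 24 genes of cholesterol synthesis and uptake 2 were called higher and 15 lower, with a median difference of -0.17 and the larger change in control for 11 and in DMF for 6. INSIG1, which retains the sterol regulator SREBP in the endoplasmic reticulum, had 121, 115 and 120.5 CPM in DMF at 24 h and 175, 192 and 174 CPM in control at 24 h, against 128, 124 and 127 CPM in DMF at 6 h and 103, 105 and 109 CPM in control at 6 h. HMGCS1, the synthase that makes HMG-CoA, changed by -0.41 in DMF and 0.21 in control, and LSS, lanosterol synthase, by -0.59 in DMF and -0.16 in control. Of 12 fatty acid synthesis genes 2 were called higher and 8 lower, with a median difference of -0.37. SREBF1, the gene of the lipogenic factor SREBP-1, changed by -0.29 in DMF and 0.57 in control, and SCD, the stearoyl-CoA desaturase, by -0.45 in DMF and 0.25 in control. For ELOVL5, a fatty acid elongase, the change of -0.042 in DMF was not called, while that of 0.47 in control was. The sterol element TCACNCCAC lay in 1 of 18 promoters of the cholesterol list, in 1.15% of all and in 1.19% of those of tested genes.

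**Figure D4:**
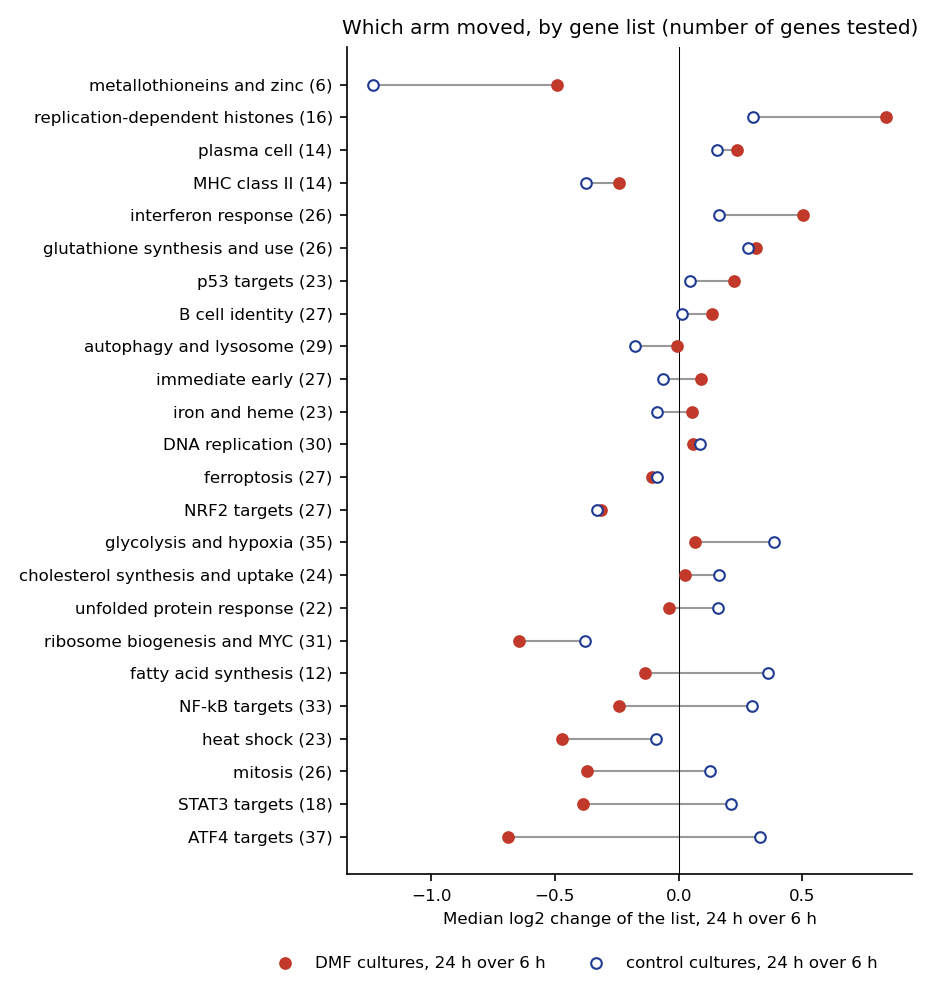
Median log2 change from 6 to 24 h of each gene list (number of genes tested in brackets) in DMF cultures (filled red) and in control cultures (open blue), sorted by the median difference. The gap between the 2 points is widest for the ATF4 targets, at -0.69 in DMF and 0.33 in control, while the metallothionein list lies left of 0 in both arms.

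In the remaining lists calls went in both directions. The share called was 92.9% for plasma cell genes, 59.3% for immediate early genes and 56.5% for p53 targets, against 50.2% of all genes. For the ferroptosis, glutathione and iron lists it was 59.3%, 57.7% and 60.9%, and for histone genes 37.5%. Plasma cell genes were called higher in 7 and lower in 6 of 14 (median difference 0.27), immediate early genes higher in 10 and lower in 6 of 27 (0.072), and p53 targets higher in 8 and lower in 5 of 23 (0.10). Ferroptosis genes were called higher in 6 and lower in 10 of 27 (median difference -0.095), genes of glutathione synthesis and use higher in 10 and lower in 5 of 26 (0.11), and genes of iron and heme higher in 6 and lower in 8 of 23 (0.011). Of 16 replication-dependent histone genes 4 were called higher and 2 lower, with a median difference of 0.34. HIST1H2BD had effects of 1.61 at 24 h and -0.15 at 6 h and HIST2H2BE of 1.15 at 24 h and -0.88 at 6 h, and DMF moved more in both. Histone genes have close relatives as well. PMAIP1, the pro-apoptotic BH3 protein NOXA, reverses downward, with -0.30 at 24 h and 0.90 at 6 h. ALAS1, the first enzyme of heme synthesis, appears upward at 0.52. The lists share members, and the mitochondrially encoded genes listed were not among the genes analysed here.

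Among reversing genes called at the other times, most had the sign of 6 h at 12 h and that of 24 h at 48 h. At 12 h only 623 of the 1396 reversing genes were called, 544 with the sign of 6 h and 79 with that of 24 h. At 48 h, 915 were called, 700 with the sign of 24 h and 215 with that of 6 h. Of the 726 that reverse upward 487 were called at 48 h, 402 of them above control, and of the 670 that reverse downward 428 were called, 298 of them below. Of the 890 growing genes 764 were called at 48 h with their sign, and of the 2191 appearing genes 1356. The effects of 12 h come from 2 libraries a group, because the replicate 3 libraries of that time stand apart. With them kept, 269 genes were called higher and 446 lower at 12 h, and 729 higher and 799 lower at 48 h. DMF at 48 h replicate 1 held 2870754 counts, and without it 391 upward and 290 downward reversals were called at 48 h with the sign of 24 h.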

How the data were processed

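RNA-seq of HBL-1 cells, an established cell line, was analysed from the 12 libraries of 6 and 24 h. The deposited tables give expected counts and TPM per gene, and the submitters' processing notes name the build GRCh38.p12 and the tools HISAT2, HISAT and RSEM without versions. The strand setting of the counting is not given in the sources used here, so overlapping and antisense genes may share reads. Deposited expected counts were rounded, and 21 second copies of genes were kept as entries of their own. edgeR 4.0.16 (R 4.3.3) fitted 1 mean per group with TMM scaling, its default filter on low counts and quasi-likelihood tests, with Benjamini-Hochberg adjustment over 13037 genes. CPM are scaled counts, errors are SD over 3 libraries or the SE of the fit, and fold changes are on a log2 scale. With 23097853 to 38294192 counts per library, 14934 to 15339 genes were detected in each.

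Alternatives were DESeq2 1.42.0 and its size factors, no filter, a replicate block, fits of 22 and 24 libraries, removal of ribosomal RNA genes, omission of each library, and limma 3.58.1 on log2(TPM + 1) of the TPM deposited by the authors. Offsets for GC content and length were added after the data were seen. Effects at 12 and 48 h came from a separate fit of 10 libraries. The code was tested on simulated data. Genes were named by class (the 4 largest differences per direction at 5 CPM or more), by list (up to 3 called members with the smallest p at 1 CPM or more) and from a short list of stress and lymphoma genes. CD68, PECAM1, EPCAM, CD247, ABCC1, ABCC2, IDH1, IFIH1 and the genes named for a promoter match were chosen after their values were seen, and not every gene that the rule admits is reported here. The members and the gene lists were chosen with earlier results of these data known. Gene coordinates are those of GENCODE release 29 (GRCh38), and promoter sequences are RefSeq's of GRCh38.p14.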

Additional observations from a re-analysis of the deposited data

Results flagged for a closer look

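The effect of DMF at 24 h and that at 6 h differed by the tested interaction for 3374 genes upward and 3176 downward, as described above. Among the genes followed whatever their result, the log2 difference was negative and called for SLC7A11 (-2.65), IL10 (-1.91), SRXN1 (-1.86), SOCS3 (-0.90), MYC (-0.74), NFKBIA (-0.72), TNFAIP3 (-0.71), ALOX5 (-0.65), TFRC (-0.36) and HMOX1 (-0.17). NQO1 was the one called with a positive difference (1.31). No group had more than 3 libraries, so single libraries were not tested for standing apart in the level of a gene.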

How the results depend on the processing

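The fit of all 24 libraries called the difference higher for 482 genes and lower for 388, the effect at 24 h higher for 1048 and lower for 885, the effect at 6 h higher for 675 and lower for 750, the change in DMF higher for 2413 and lower for 1920, and the change in control higher for 1246 and lower for 1011. It placed 89 genes as reversing, 294 as fading, 27 as growing and 398 as appearing, with the larger change in DMF for 707 and in control for 163, and 37 of 107 named genes lost their call. Of its 870 calls, 866 were among the 6550 with their direction, and it left 6 mitotic, 8 NF-kB and 4 heat shock genes called lower. Without replicate 3 of both groups at 12 h, 5974 of the 6550 calls kept their direction. In the TPM fit 2087 differences were lower, and the effect at 6 h was higher for 1668 genes and lower for 5528. The cause of that shift was not tested. With replicate 3 of 12 h kept, 269 genes were called higher and 446 lower at 12 h, and 729 higher and 799 lower at 48 h. Of the earlier calls, 20 were called in the other direction with offsets for GC content and length and 1 in the TPM fit. Among the named genes, signs turned only for differences that were not called: CD40 (0.0505) and GPX4 (0.0199) in the TPM fit and, over the fits that leave out 1 library, CCL3 (-0.266 to 0.173), CCL4 (-0.308 to 0.0451), CD40 (-0.0629 to 0.00179) and OSGIN1 (-0.168 to 0.24). Over the 12 fits that leave out 1 library, 3096 to 3416 differences were higher and 2976 to 3333 lower, with 1206 to 1480 genes reversing. Deviations of same-numbered replicates had correlations of -0.0406 to 0.0685 over 18 pairs, and those of other pairs -0.0765 to 0.0639 over 36. Such values near 0 cannot settle whether the numbers pair the samples, because paired libraries with little shared variation would give them too. With the replicate block 6631 genes were called, 6494 of the earlier calls kept their direction, and no named call changed.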
